A study of Mus musculus with 4 samples.

Results

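The 309 cells described here are the TGFβR-KO and TGFβR-WT cells that the authors placed in the cluster they named pre-tumorigenic, out of 392 cells of that cluster and 5080 cells in all. They were taken by the deposited cluster name and by the condition in each cell's name, which gave 230 of the 2975 TGFβR-KO cells and 79 of the 1007 TGFβR-WT cells. All samples are YFP+CD4+ T cells of the mouse small intestine, sorted at 7 to 8 months of age from pools of mice and captured in droplets, with each RNA molecule tagged by a unique molecular identifier (UMI). The mice carry *Il17a-cre* and a YFP reporter that marks cells once they have switched on *Il17a*, so that a gene is changed only in cells already committed to the TH17 fate. TGFβR-KO cells carry floxed *Tgfbr2*, which encodes a chain of the TGFβ receptor. TGFβR-CA cells, given beside the others, carry a *Tgfbr1* transgene whose active receptor is released by Cre, and TGFβR-WT mice carry Cre without either receptor allele. TGFβR-KO and TGFβR-CA are 1 sample each and TGFβR-WT is 2 samples, but nothing in the table ties a TGFβR-WT cell to its sample. The names of these cells end in 2 suffixes. Set A holds 27 pre-tumorigenic cells and set B holds 52, and both are kept apart below. By the study's methods, 1 sequencing run held TGFβR-KO beside TGFβR-WT cells and another run held TGFβR-CA beside further TGFβR-WT cells. No label says which set belongs to which run.

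TGFβ binds a receptor made of TGFBR1 and TGFBR2, which phosphorylates SMAD2 and SMAD3 and so raises some genes and lowers others. Among the genes it raises are its own brakes, such as *Smad7* and *Skil*. TH17 cells are helper T cells of the gut barrier that make IL-17A, IL-17F and IL-22, and some of them turn to IFNγ, the signature cytokine of TH1 cells. The study follows this turn after loss of the receptor, and the pre-tumorigenic cluster is marked by genes of cell stress, among them heat shock chaperones, which hold other proteins in shape and are induced when heat shock factor binds repeats of GAA and TTC in their promoters. The comparison asks what differs in these cells once the receptor is lost.

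The repeat can be read in the promoters of several of these chaperone genes. *Hspa1a* (chr17:34969190-34972156, minus strand, GRCm38) and its near copy *Hspa1b* (chr17:34956436-34959238, minus strand) encode inducible HSP70. Below are the 200 bases before the start of each, at chr17:34972157-34972356 and chr17:34959239-34959438, from RefSeq on GRCm38.p6 and read 5′ to 3′ along the gene. They are followed by 30 bases around the repeats of *Hspe1* at chr1:55088053-55088082 (plus strand) and around 1 repeat of *Hsph1* at chr5:149636351-149636380 (minus strand). Capitals mark GAANNTTC or TTCNNGAA, each of which reads the same on both strands.
Hspa1a: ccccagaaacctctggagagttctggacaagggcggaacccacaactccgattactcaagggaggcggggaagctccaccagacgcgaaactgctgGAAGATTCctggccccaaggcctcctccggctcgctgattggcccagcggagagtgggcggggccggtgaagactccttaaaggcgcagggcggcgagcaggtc
Hspa1b: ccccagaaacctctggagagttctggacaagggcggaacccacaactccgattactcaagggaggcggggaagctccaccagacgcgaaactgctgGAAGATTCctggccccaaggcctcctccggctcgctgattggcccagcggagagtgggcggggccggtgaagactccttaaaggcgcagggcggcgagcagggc
Hspe1: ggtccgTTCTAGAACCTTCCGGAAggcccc
Hsph1: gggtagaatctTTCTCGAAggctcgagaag
Both HSP70 genes hold the repeat from 104 to 97 bases before the start. *Hspe1* and *Hspd1* lie head to head and the run printed for *Hspe1* is also within the window of 1 of the 2 *Hspd1* starts, while the other holds 0 matches. A GAANNTTC or TTCNNGAA was found in 15.1% of 32851 promoter windows that run from 250 bases before to 50 bases after a start, so a single match is common. Of the 6 chaperone genes that passed the fold below, 5 were in the promoter table. A match was found in 4 of these, all but *Dnajb1*, and 3 held 3 units in a row (GAANNTTCNNGAA or TTCNNGAANNTTC), which 0.603% of all windows hold. In *Hsph1* this run is not in the bases printed, and it ends 27 or 48 bases after the start, by which of its 2 starts is used. The windows of *Hspa1a* and *Hspa1b* were identical at 296 of 300 bases, and reads of genes this alike can be split between them, so their sum is also given.

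The deposited values are UMIs corrected to a common depth, so that the original depth of a cell is not known from them. Corrected UMIs summed to 870644 in TGFβR-KO, 91081 in set A and 201868 in set B, and the median per cell was 3647.5, 3290 and 3734.5. The cluster held 7.73% of TGFβR-KO cells (95% confidence interval 6.80 to 8.75, exact Clopper-Pearson), 3.81% of set A (2.52 to 5.49) and 17.4% of set B (13.3 to 22.2), so TGFβR-KO lay between the TGFβR-WT sets. These and all intervals below cover counting error only. The TGFβR-WT sets also differ from each other in ways that genotype does not explain. *Xist*, the RNA of the inactive X chromosome, was at 0 in TGFβR-KO and set A, 12.4 corrected UMIs per 10000 in set B and 4.64 in TGFβR-CA. No pre-tumorigenic cell shares its barcode with a cell of another set. Over all clusters, 14 barcodes are found in both TGFβR-KO and set A, 1 in TGFβR-KO and TGFβR-CA, 1 in set A and set B, and 0 in any other pair of sets.

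The summed level of 11 T cell markers was 99.6 corrected UMIs per 10000 in TGFβR-KO, 120 in set A and 116 in set B, and *Cd3e* was detected in 220 of 230, 27 of 27 and 52 of 52 cells. The defining markers of other lineages were at or near 0, with *Cd8a* at 0.0115, 0 and 0 and summed epithelial markers at 0.505, 0.439 and 0.495. The exception was *Jchain*, a plasma cell gene, at 5.82 in set A, where all of its UMIs came from 1 cell. The 8 stress genes by which the study describes the cluster summed to 273 in TGFβR-KO, 169 in set A, 194 in set B and 158 in TGFβR-CA, so the 2 TGFβR-WT sets and TGFβR-CA lay close together and TGFβR-KO was highest. *Tgfbr2* itself was at 1.40 in TGFβR-KO, 2.20 in set A and 1.88 in set B. The labels call these 3′ libraries, while the study's methods name a 5′ kit for libraries of gene expression and TCR, and where the reads lie relative to the floxed part was not examined, so these levels do not check its loss. *Tgfbr1*, which TGFβR-KO cells keep, was at 0.184, 0 and 4.61, a further difference between the TGFβR-WT sets.

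With 1 TGFβR-KO sample there is no test between conditions, and no p-value is given. A gene is called higher or lower by size only, where its level in TGFβR-KO was at least 2-fold away in the same direction from both set A and set B. Ratios are on the scale of log2 of the level plus 0.1 per 10000, which understates the change of low genes, and genes had to reach a mean level of 0.5 per 10000, counting TGFβR-KO and the mean of the TGFβR-WT sets equally. Of 2819 such genes among 13265, 49 were higher in TGFβR-KO (1.74%) and 44 were lower (1.56%), together 93 (3.30%). The filter itself favours genes that are high on 1 side. Of the 49, 24 had a mean TGFβR-WT level under 0.5 and passed only through TGFβR-KO, and of the 44, 24 had a TGFβR-KO level under 0.5 and passed only through TGFβR-WT, so the counts over lists below are descriptions and not support. By the same fold, set A and set B differed from each other in 491 genes (17.4%). That is 1 comparison, while the 93 had to pass 2. Against set A alone 145 genes were higher in TGFβR-KO and 165 lower, and against set B alone 160 and 224. The SD of the log2 ratio across genes was 0.66 for TGFβR-KO against set A, 0.78 against set B and 0.80 between the TGFβR-WT sets. By these SDs TGFβR-KO was no farther from either TGFβR-WT set than these were from each other. The SDs also hold counting error, which is largest between the TGFβR-WT sets because these have the fewest UMIs, so they do not rank the distances. A gene that parts TGFβR-KO from 1 set only is not called. The median gene lay at -0.12 against set A and -0.16 against set B. After scaling by the median of gene ratios in place of totals, 58 genes were higher and 31 lower.

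**Figure D1:**
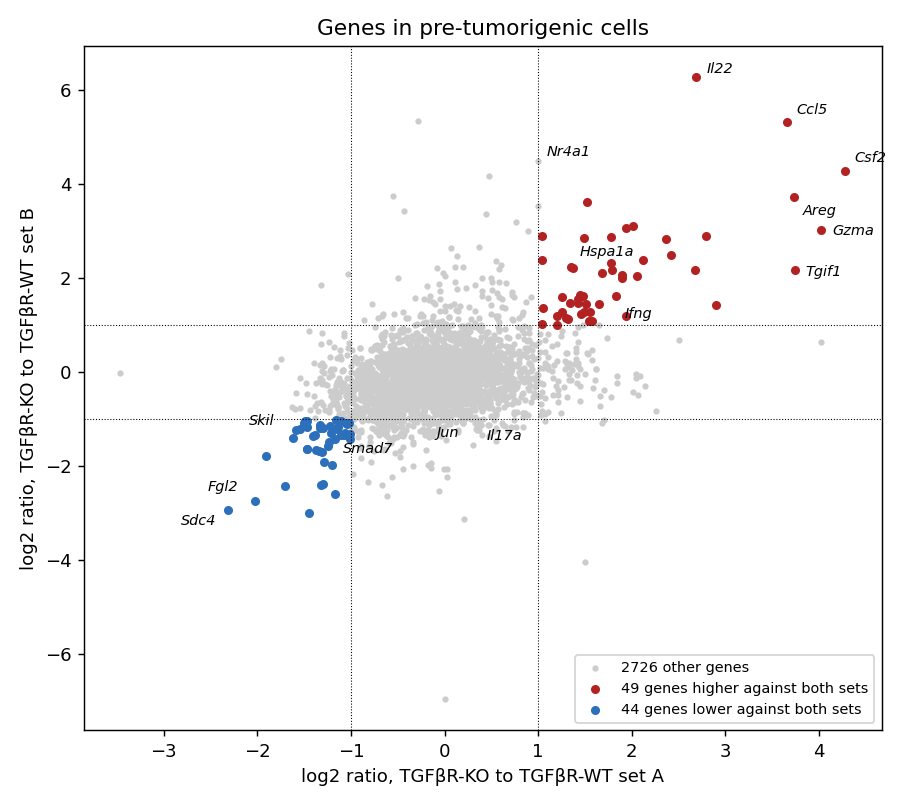
Each point is 1 of 2819 genes in pre-tumorigenic cells, with the log2 ratio of TGFβR-KO to TGFβR-WT set A on the x axis and to set B on the y axis. Dotted lines mark the 2-fold limits, the 49 genes higher against both sets are at the upper right and the 44 lower genes at the lower left, and the lowest point is *Xist*.

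*Csf2*, *Areg* and *Ccl5*, of the cytokines and chemokines, had the largest ratios of all higher genes, taking for each gene the smaller of its ratios against the 2 sets. Of 30 cytokine and chemokine genes listed, 27 were in the table and 12 passed the filter on levels, of which 5 were higher in TGFβR-KO and 0 lower. Of these 5, 4 passed the filter only through TGFβR-KO, all but *Ifng*. *Il22*, counted in the TH17 list instead, encodes IL-22, which acts on epithelial cells to drive their defence and repair. It lies at chr10:118204942-118210047 (plus strand, GRCm38), on the chromosome that also holds *Ifng* (chr10:118441046-118445892, plus strand). *Il22* was at 38.6 corrected UMIs per 10000 in TGFβR-KO, 5.93 in set A, 0.396 in set B and 7.90 in TGFβR-CA. TGFβR-KO was above each of the others, by log2 ratios of 2.68 against set A and 6.29 against set B. A corrected UMI of *Il22* was found in 121 of 230 TGFβR-KO cells (52.6%, 45.9 to 59.2), 9 of 27 cells of set A (33.3%, 16.5 to 54.0) and 7 of 52 of set B (13.5%, 5.59 to 25.8). The shares of TGFβR-KO and set A overlap in their intervals, which with 27 cells does not show that they are alike. These counts do not settle how much of the difference lies in the level per cell and how much in the number of cells. In set A, 68.5% of its UMIs came from 1 cell, against 7.05% in TGFβR-KO.

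Free RNA in droplets can give UMIs in cells that do not use a gene. In the cluster named TR-TFH, follicular helper-like cells with the lowest shares of these cytokines among the larger clusters of TGFβR-KO, *Il22* was detected in 6.0% of 519 TGFβR-KO cells, 8.26% of 327 set A cells and 3.01% of 133 set B cells. *Ifng* was detected there in 1.35%, 1.53% and 0 of 133 cells, which allows a share of up to 2.26% by 3 counts. The median corrected UMIs of these cells were 3575, 3305 and 3895, close to those of the pre-tumorigenic cells. The shares in pre-tumorigenic cells were above these in each set, which the choice of a cluster with low shares favours. For *Il22* in set B the intervals overlap, at 5.59 to 25.8% in pre-tumorigenic and 0.825 to 7.52% in TR-TFH cells.

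*Ifng*, which encodes IFNγ, was at 7.66 in TGFβR-KO, 2.09 in set A, 2.43 in set B and 1.91 in TGFβR-CA. The other 3 sets lay close together, and TGFβR-KO was above them with log2 ratios of 1.83 against set A and 1.62 against set B. It was detected in 96 of 230 TGFβR-KO cells (41.7%, 35.3 to 48.4), 8 of 27 cells of set A (29.6%, 13.8 to 50.2) and 15 of 52 of set B (28.8%, 17.1 to 43.1). Again the intervals of the shares overlap, and 13.5% of the TGFβR-KO UMIs came from 1 cell.

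*Csf2* (chr11:54247271-54249667, minus strand, GRCm38) encodes GM-CSF, a growth factor for myeloid cells made by inflammatory helper T cells. It was at 1.85 in TGFβR-KO and at 0 in set A, set B and TGFβR-CA. Its 161 UMIs came from 37 of 230 TGFβR-KO cells (16.1%, 11.6 to 21.5), and 21.7% of them came from 1 cell. The level was 18.1-fold higher than a floor of 3 UMIs over both TGFβR-WT sets. That floor counts each UMI as independent, while these UMIs are bunched in few cells, so the ratio is not a lower bound. By the limit of 3 counts, the 0 of 27 and 0 of 52 cells allow shares of up to 11.1% and 5.77%, and the exact intervals drawn in the plot of detection reach 12.8% and 6.85%. Within TGFβR-KO, *Csf2* was detected in 3.14% of activated cells and in 21.1% of the cells of the cluster named tumorigenic.

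*Areg* encodes amphiregulin, an epidermal growth factor receptor ligand that promotes growth and repair of epithelium. It was at 1.23 in TGFβR-KO, 0 in both TGFβR-WT sets and 0.408 in TGFβR-CA, and was detected in 29 of 230 TGFβR-KO cells (12.6%, 8.61 to 17.6). The level in TGFβR-KO was 12.0-fold higher than the floor over both TGFβR-WT sets, which is again not a lower bound. Because TGFβR-CA had *Areg* in 8 of 83 cells, the 0 in the TGFβR-WT sets is not shared by every set with an intact receptor chain.

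Of the chemokines, *Ccl5*, which draws T cells and monocytes, was at 3.94 in TGFβR-KO, 0.220 in set A and 0 in set B. A single cell held 37.3% of its UMIs in TGFβR-KO. *Cxcl10*, a target of IFNγ that binds CXCR3, was at 1.14, 0.329 and 0. *Gzma*, a granule protease of killer cells, was at 1.53 in TGFβR-KO, 0 in set A and 0.0991 in set B, in 21 of 230, 0 of 27 and 2 of 52 cells. It was the 1 gene called among 7 of the cytotoxic list that passed the filter, and it passed only through TGFβR-KO. *Gzmb* was at 1.02, 2.42 and 1.63, so the granzymes did not differ in the same direction.

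**Figure D2:**
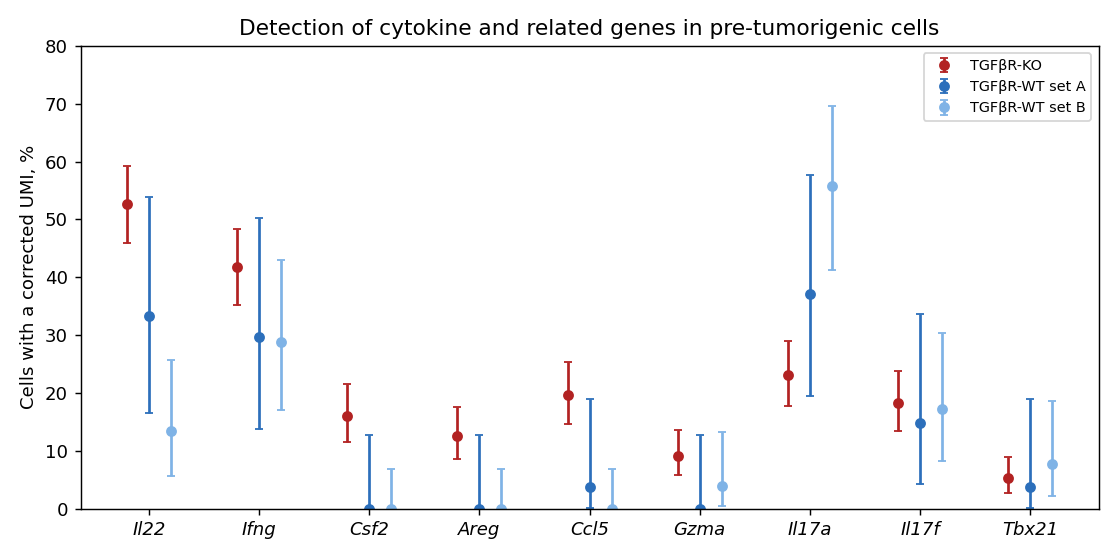
The share of pre-tumorigenic cells with a corrected UMI of each gene, in %, for TGFβR-KO (230 cells), TGFβR-WT set A (27) and set B (52), with exact 95% confidence intervals as bars. *Csf2* and *Areg* were detected in TGFβR-KO and in 0 cells of either TGFβR-WT set, and *Il17a* was detected in a smaller share of TGFβR-KO cells than of either set.

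The IL-17 genes did not share this pattern. *Il17a* was at 8.61 in TGFβR-KO, 6.81 in set A and 20.1 in set B, so TGFβR-KO lay between the sets. It was detected in 53 of 230 TGFβR-KO cells (23%, 17.8 to 29), 10 of 27 (37.0%, 19.4 to 57.6) and 29 of 52 (55.8%, 41.3 to 69.5). *Il17f* was at 5.36, 2.20 and 2.87, with log2 ratios of 1.25 and 0.88, and did not pass the fold against set B. Of 18 genes of TH17 identity that passed the filter, 2 were higher in TGFβR-KO, *Il22* and *Batf*, and 0 were lower. *Batf*, an AP-1 factor needed for TH17 differentiation, was at 2.41 in TGFβR-KO, 0.988 in set A and 0.991 in set B. *Maf*, a transcription factor of TH17 cells, was at 15.2, 27.4 and 22.4, below both sets without reaching the fold.

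The pairing of cytokines within cells was read as a count of cells. Of the 96 TGFβR-KO cells with *Ifng*, 17 also had *Il17a* (17.7%, 10.7 to 26.8). The same held for 5 of 8 cells in set A (62.5%, 24.5 to 91.5), 11 of 15 in set B (73.3%, 44.9 to 92.2) and 14 of 16 in TGFβR-CA (87.5%, 61.7 to 98.4). In TGFβR-KO most *Ifng* cells were thus without *Il17a*, while in each other set most had both. Because *Il17a* was detected in fewer TGFβR-KO cells to begin with, the same counts can be read against *Il17a*. Of the *Il17a* cells, *Ifng* was found in 17 of 53 in TGFβR-KO (32.1%), 5 of 10 in set A, 11 of 29 in set B (37.9%) and 14 of 34 in TGFβR-CA (41.2%). *Il22* was found in 49 of the 96 *Ifng* cells of TGFβR-KO and in 24 of its 37 *Csf2* cells.

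*Tbx21*, which encodes T-BET, the master regulator of TH1 cells, was at 0.184 in TGFβR-KO, 0.110 in set A and 0.297 in set B, below the filter on levels. It was detected in 12 of 230, 1 of 27 and 4 of 52 cells, and a difference was not detectable at this depth. In TGFβR-KO, 10 of the 12 *Tbx21* cells also had *Ifng*. In set A and set B 0 of the 1 and 0 of the 4 did. Of 10 TH1 regulators and cytokine receptors that passed the filter, *Ifng* and *Bhlhe40* were higher and 0 were lower. *Bhlhe40*, a repressor that helper T cells use to hold down IL-10 and make GM-CSF, was at 6.44 in TGFβR-KO, 2.64 in set A and 2.58 in set B. *Il10* was near 0 in all sets, at 0.0459, 0 and 0.248.

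The chaperone genes formed the group with the most members called. Of 20 that passed the filter, 6 were higher in TGFβR-KO and 0 lower, with median log2 ratios of 0.76 against set A and 0.13 against set B. *Hspa1a* was at 74.9 in TGFβR-KO, 29.3 in set A, 15.7 in set B and 18.7 in TGFβR-CA, with log2 ratios of 1.35 and 2.25. *Hspa1b* was at 83.6, 44.0, 27.6 and 31.5 and missed the fold against set A, with log2 ratios of 0.92 and 1.60. The sum of both was 159 in TGFβR-KO, 73.3 in set A, 43.3 in set B and 50.1 in TGFβR-CA, past the fold against both sets with log2 ratios of 1.11 and 1.87.

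*Dnajb1*, the co-chaperone that loads clients onto HSP70, was at 21.1 in TGFβR-KO, 6.04 in set A and 4.61 in set B. *Hsp90aa1*, the inducible HSP90, was at 29.6, 10.98 and 10.6. The mitochondrial pair *Hspe1* and *Hspd1*, whose products fold proteins together and whose genes share the promoter printed above, was at 12.9 against 3.40 and 3.02, and at 4.09 against 0.988 and 1.73. *Hsph1*, a nucleotide exchange factor of HSP70, was at 1.39, 0.549 and 0.644 and was the last gene inside the limit. Among chaperones without a fold call, some are made by unstressed cells too. *Hspa8* was at 18.7, 6.81 and 23.1, *Hsp90ab1* at 30.9, 16.7 and 22.5, and *Hspa5*, which works in the endoplasmic reticulum, at 9.82, 6.81 and 7.93.

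The share of a cell's corrected UMIs in 10 chaperone genes had a median of 1.98% in TGFβR-KO, 0.850% in set A, 0.860% in set B and 0.754% in TGFβR-CA. The cells overlap. TGFβR-KO ran from 0.0853% to 15.6%, set A from 0.271% to 4.04% and set B from 0.191% to 5.05%, and 34 TGFβR-KO cells (14.8%) were above every TGFβR-WT cell. In the other clusters the medians were 0.300% in TGFβR-KO, 0.297% in set A and 0.464% in set B. That gap follows in part from the choice of cells, since the study describes this cluster by such genes. Within the cluster TGFβR-KO was highest.

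**Figure D3:**
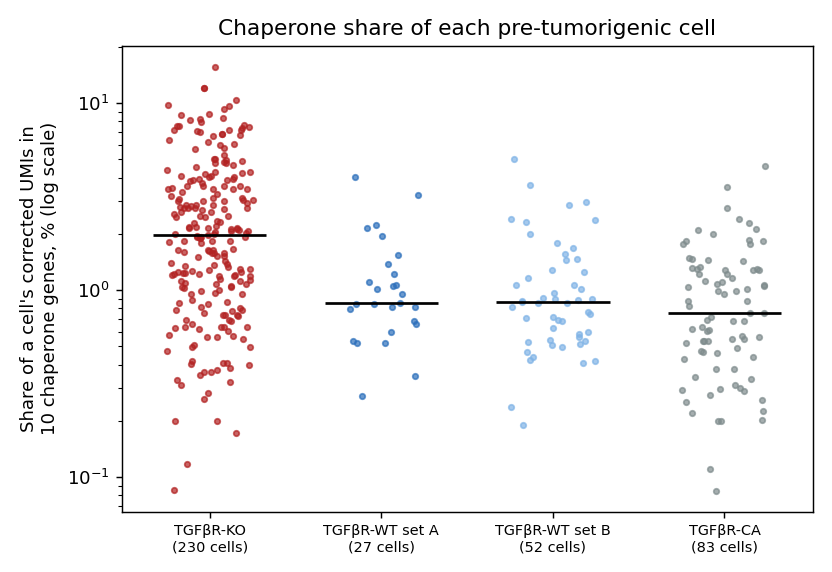
Each point is 1 pre-tumorigenic cell, with the share of its corrected UMIs in 10 chaperone genes on a log axis, and lines mark the medians. The TGFβR-KO median of 1.98% is above the other medians, which lie from 0.754% to 0.860%, and the cells of all sets overlap.

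Some cytokines were higher in the TGFβR-KO cells with more chaperone RNA, and the part of this in the differences from TGFβR-WT was not tested beyond the values given here. In the 115 TGFβR-KO cells with the lower chaperone share, *Il22* was at 24.98, *Ifng* at 4.84 and *Csf2* at 0.756, against 52.4, 10.5 and 2.95 in the other 115. *Gzma* and *Areg* differed less, at 1.58 and 1.03 in the cells of lower share against 1.47 and 1.43 in those of higher share. In the cells at or below the median chaperone share of all TGFβR-WT cells, chosen after seeing the data (52 TGFβR-KO, 14 set A and 26 set B), *Il22* was at 14.9, 3.36 and 0.388 and *Ifng* at 6.38, 2.94 and 2.52, both still past the fold. *Hspa1a* was then at 4.98, 13.03 and 4.47, by the choice of cells. Among these cells 22 of the 49 higher genes and 19 of the 44 lower genes stayed past the fold, with 44 and 43 in the same direction. *Ccl5* (0.363, 0.420 and 0) and *Cdkn1a* (0.518, 0.420 and 0.194) were among those that did not stay.

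Of the other stress and immediate early genes, few passed the fold. *Jun* was at 35.6 in TGFβR-KO, 40.4 in set A and 83.7 in set B. *Fos* was at 25.6, 28.1 and 23.6, and *Dusp1*, a phosphatase that switches off MAP kinases, at 14.3, 11.9 and 17.3. *Klf6*, a zinc finger factor that the study follows, was at 23.8, 16.9 and 26.6. None of these 4 was on the same side of both sets by the fold, and all but *Jun* lay between the sets. *Hspa2* was below the filter, at 0.184, 0.220 and 0.

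Of 18 AP-1 and immediate early genes that passed the filter, 2 were higher in TGFβR-KO, *Batf* and *Nr4a3*, and 0 lower. At any size 10 of the 18 were above both sets and 2 below, beside 599 and 1120 of all 2819 genes. Their median log2 ratios were 0.26 against set A and 0.78 against set B. *Nr4a3*, an orphan nuclear receptor induced by signals through the T cell receptor, was at 1.02, 0.110 and 0.0991. *Nr4a1*, of the same family, was at 7.76, 3.84 and 0.248, with log2 ratios of 0.998 and 4.50, just outside the limit of set A. *Junb* was at 81.6, 46.0 and 35.3, with log2 ratios of 0.83 and 1.21. Of 5 Krüppel-like factors 0 passed the fold in either direction.

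Of 12 NF-κB subunits and feedback inhibitors that passed the filter, 3 were higher in TGFβR-KO and 0 lower, 5 were above both sets at any size, and the median log2 ratios were 0.45 against set A and -0.09 against set B. Of these, *Tnfaip3* and *Nfkbia* encode inhibitors of NF-κB. *Tnfaip3*, which encodes A20, was at 12.7 in TGFβR-KO, 4.61 in set A and 4.01 in set B. *Nfkbia*, which encodes IκBα, was at 16.6, 5.60 and 6.79, and *Nfkbiz*, an atypical IκB that takes part in IL-17 responses, at 4.20, 1.43 and 0.495. *Rel*, a subunit of NF-κB, was at 3.39, 1.65 and 0.198 and was just outside the limit against set A.

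Of 12 genes listed for apoptosis and p53 targets that passed the filter, 4 were higher in TGFβR-KO and 0 lower. Of these 4, 2 passed only through TGFβR-KO. Those called are genes of growth arrest and stress. *Gadd45b* was at 14.7 in TGFβR-KO, 4.50 in set A and 3.32 in set B. *Cdkn1a*, the cell cycle inhibitor p21, was at 1.63, 0.329 and 0.0991, *Ddit4*, an inhibitor of mTORC1, at 1.64, 0.549 and 0.495, and *Ddit3*, a factor of the unfolded protein response, at 0.850, 0.220 and 0.347. *Mcl1* and *Bax*, which oppose and promote apoptosis, lay between the sets, at 3.92, 3.84 and 4.76 and at 1.96, 1.54 and 2.13.

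The other genes with the largest ratios belong to no single list. *Gem*, a small GTPase, was at 2.11, 0.220 and 0.198. *Dusp5*, a phosphatase of ERK and the 1 gene called of 6 MAP kinase phosphatases that passed the filter, was at 3.23, 0.769 and 0.297, and *Sik1*, a kinase induced by cAMP, at 1.24, 0.110 and 0.198. *Rgcc* was at 2.15, 0.439 and 0.446, *Ifrd1* at 3.81, 0.659 and 0.446 and *Rilpl2* at 2.25, 0.439 and 0.347. *Tnfrsf4*, the costimulatory receptor OX40, was at 1.09, 0.220 and 0.198 but at 0.909 in TGFβR-CA. In all, 47 of the 49 higher genes were also above TGFβR-CA, 39 of them by the fold. The 2 exceptions were *Lars2*, at 1.13 in TGFβR-KO and 9.84 in TGFβR-CA, and *Cox20*, at 1.79 and 2.13.

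**Figure D4:**
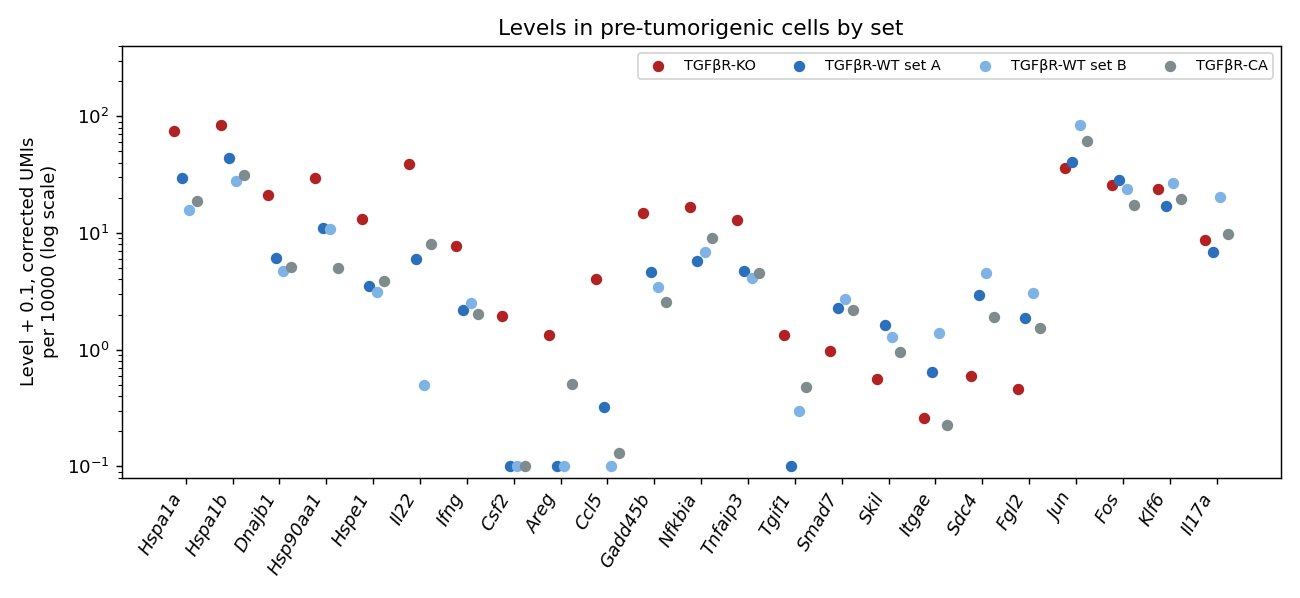
Levels of 23 genes in pre-tumorigenic cells, as corrected UMIs per 10000 with 0.1 added, on a log axis, with 1 point for each of TGFβR-KO, TGFβR-WT set A, set B and TGFβR-CA and no error bar because no set has replicates. Points at 0.1 are genes at 0, the chaperones and cytokines at the left are highest in TGFβR-KO, and *Jun*, *Fos*, *Klf6* and *Il17a* at the right are not.

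Genes of the TGFβ response differed in both directions. Of 8 feedback and response genes that passed the filter, 3 were lower in TGFβR-KO and 2 were higher. The 2 higher genes passed only through TGFβR-KO, and 2 of the 3 lower genes, all but *Smad7*, passed only through TGFβR-WT. *Smad7*, the inhibitory SMAD that TGFβ induces, was at 0.873 in TGFβR-KO, 2.20 in set A, 2.63 in set B and 2.07 in TGFβR-CA, with log2 ratios of -1.24 and -1.49. TGFβR-KO was the lowest and the other 3 lay close together. It was detected in 54 of 230 cells (23.5%, 18.2 to 29.5), 12 of 27 (44.4%, 25.5 to 64.7), 27 of 52 (51.9%, 37.6 to 66.0) and 36 of 83 (43.4%, 32.5 to 54.7).

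*Skil* (chr3:31095058-31122577, plus strand, GRCm38), whose product SnoN represses SMAD targets, was at 0.459 in TGFβR-KO, 1.54 in set A, 1.19 in set B and 0.846 in TGFβR-CA. In the TGFβR-KO cells of lower and higher chaperone share *Skil* was at 0.458 and 0.460, while *Smad7* was at 1.03 and 0.714. *Itgae*, which encodes CD103, the integrin that holds T cells at the epithelium and is raised by TGFβ, was at 0.161, 0.549 and 1.29. Its level in set A rests on 5 UMIs in 3 cells, and TGFβR-CA was as low as TGFβR-KO, at 0.125. By chaperone share of the TGFβR-KO cells, *Itgae* was at 0.206 in the lower and 0.115 in the higher. Whether chaperone share bears on these genes was not tested. *Pmepa1*, another brake on SMADs, was below the filter, at 0.138, 0.329 and 1.39. The 2 higher genes were *Tgif1*, a corepressor of SMAD targets, at 1.24, 0 and 0.198, and *Cdkn1a*. Of 4 receptor, ligand and SMAD genes 0 passed the fold.

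The lower genes were mostly of low level, and 16 of the 44 were also lower than TGFβR-CA by the fold, with 41 below it at any size. *Sdc4*, a heparan sulfate proteoglycan of the cell surface, had the largest difference, at 0.494 in TGFβR-KO, 2.85 in set A, 4.46 in set B and 1.82 in TGFβR-CA. *Fgl2*, a secreted immunoregulatory protein, was at 0.356, 1.76, 2.97 and 1.44. The carboxypeptidases *Cpe* and *Cpd* were at 0.368, 1.43 and 2.43 and at 0.884, 2.64 and 2.97. *Abi3*, an adaptor of actin regulators, was at 0.459, 1.43 and 4.36. *Il27ra*, the receptor for IL-27, a cytokine that restrains TH17 cells, was at 1.26, 3.51 and 3.42 and was the 1 gene called of 9 interleukin receptor chains.

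*Rgs10* was at 1.78, 4.50 and 6.94, *Cd52* at 2.38, 5.49 and 14.9 and *Timp2*, an inhibitor of matrix proteases, at 1.69, 4.06 and 4.31. For *Cd52*, *Abi3*, *Itgae* and *Serf2* the TGFβR-WT sets also differed from each other by more than 2-fold, so only the direction is shared. *Fbxo22* was at 0.218, 1.10 and 0.991, *Usp8*, a deubiquitinase, at 0.253, 0.878 and 0.991, *Lingo4* at 0.218, 0.878 and 0.743 and *Slfn1* at 0.448, 1.32 and 1.63. *Herc1* was at 0.459, 1.32 and 1.68, *Irf2bpl* at 0.528, 1.54 and 1.49, the long noncoding RNA *AU020206* at 1.05, 2.74 and 3.62 and *Serf2* at 0.965, 2.53 and 5.45. The fewest UMIs behind a lower gene in set A was 5.

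Several groups gave no calls in either direction. Over all 2819 genes the share called was 3.30%, so 0 calls in a group of this size is near that share. The same holds for the shorter lists above with 0 calls. These were 24 genes of the actin cytoskeleton, 78 cytosolic ribosomal proteins, 19 of MHC class I and the interferon response, 13 S100, annexin and galectin genes and 8 inhibitory receptors. The ribosomal proteins had median log2 ratios of 0.18 against set A and 0.30 against set B, above the median gene in both. The checkpoint receptor *Ctla4* was at 10.8, 6.81 and 7.28. Of 17 homing and retention genes, *Ly6a* was higher and *Itgae* lower, and of 4 cell cycle genes 0 passed the fold.

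The smaller log2 ratio of the last gene inside the limit was 1.002 for higher genes and -1.01 for lower genes, and the first genes outside were at 0.998 and -0.99, so the limit does not fall in a gap.

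Activated cells, another cluster of TH17 cells that the study names, were set beside these (318 TGFβR-KO, 88 set A and 29 set B cells). They come from the same libraries, and the difference between clusters was not tested. By the same rule 17 of 3333 genes were higher in TGFβR-KO there (0.510%) and 55 lower (1.65%). Of the 49 genes higher in pre-tumorigenic cells 2 were also called higher in activated cells, *Ccl5* and *Ly6a*, and of the 44 lower genes 10 were also called lower. Many of the higher genes are barely used by activated cells, since 29 of the 49 were under a level of 1 in all 3 activated sets. *Il22* was at 1.27, 0.902 and 0.570 in activated TGFβR-KO, set A and set B cells, *Ifng* at 1.99, 1.52 and 1.46, *Csf2* at 0.0899, 0 and 0 and *Hspa1a* at 1.10, 1.06 and 0.0814. By detection, *Ifng* was found in 37.1% of activated TGFβR-KO cells (31.8 to 42.7), 23.9% of set A (15.4 to 34.1) and 24.1% of set B (10.3 to 43.5). The TGFβR-KO share was above both sets, as in pre-tumorigenic cells, and again the intervals overlap. *Il22* was detected in 26.1%, 19.3% and 10.3% of these cells. *Il17a* was detected in 13.5%, 56.8% and 58.6%, again a smaller share in TGFβR-KO than in either set. The lower TGFβ response genes were also below both TGFβR-WT sets in activated cells. In activated cells *Smad7* was at 0.768, 1.62 and 2.28, *Skil* at 0.384, 1.15 and 3.66 and *Itgae* at 0.155, 0.529 and 2.12.

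**Figure D5:**
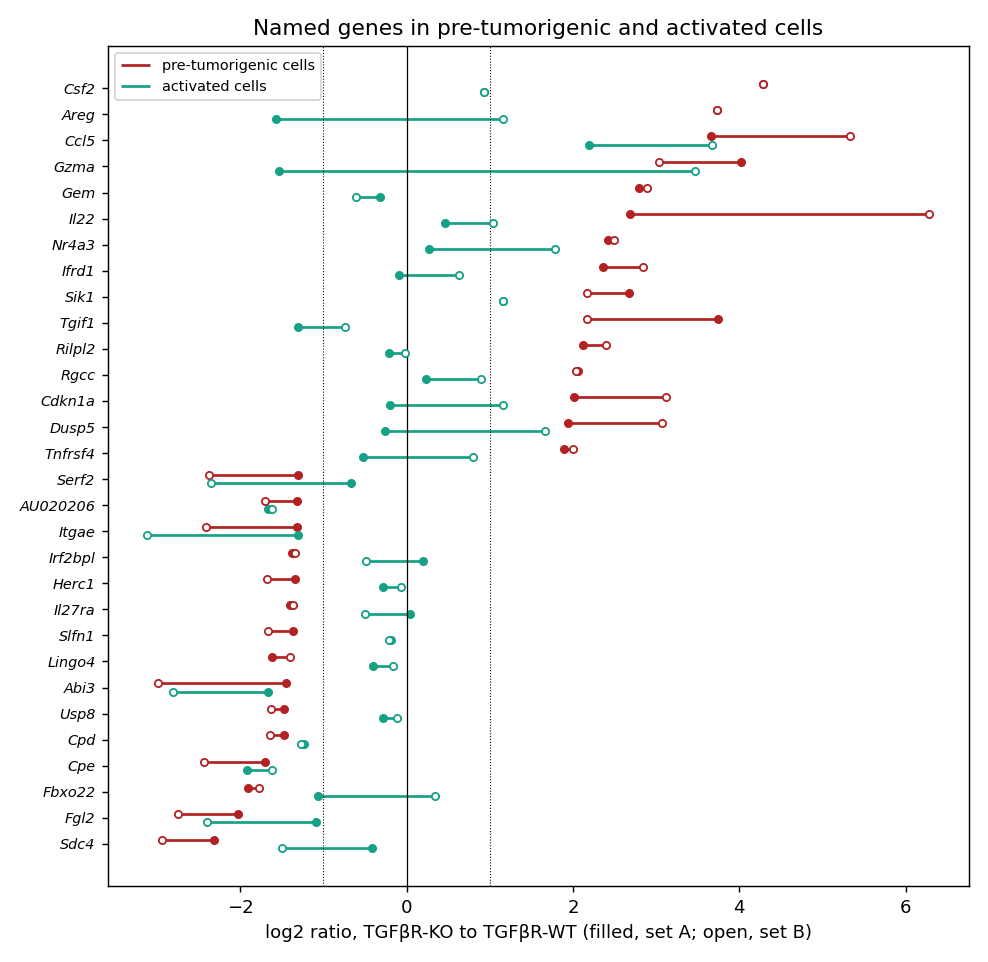
The log2 ratio of TGFβR-KO to TGFβR-WT set A (filled) and set B (open) for the 15 higher and the 15 lower genes with the largest smaller ratio, in pre-tumorigenic and in activated cells. The pre-tumorigenic ratios are past the dotted 2-fold limits by the choice of genes. Of the genes shown, *Ccl5* is also called higher in activated cells, *Sik1* is past the upper limit there but too low in level to be called, and *Itgae*, *Abi3*, *Cpd*, *Cpe*, *Fgl2* and *AU020206* are past the lower limit.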

How the data were processed

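The authors aligned and counted UMIs with Cell Ranger 3.1.0 against mm10. They filtered cells on detected genes (1000 to 5000) and on a mitochondrial share under 10%, then used SCTransform and clustered the cells in Seurat. The deposited values are on a natural log scale, ln(1 + corrected UMI), for 13265 genes in 5080 cells. Undoing the log gave whole numbers, to a tolerance of 1e-06. As these are corrected and not raw, neither a count model nor a doublet caller was applied.

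Corrected UMIs were summed within each set and divided by the set's total to give levels per 10000. Members and gene lists were chosen with earlier results of these data known. Named genes are the top 15 higher and the top 15 lower genes, ordered by the smaller of their ratios, the genes the study names, and from each of 35 lists the members past the fold and up to 4 with the highest level. *Il17f*, *Nr4a1*, *Pmepa1*, *Hspa8*, *Hspa5*, *Cd8a*, *Rgs10*, *Cd52*, *Timp2*, *Kdm6b*, *Xist*, *Lars2* and *Cox20* were chosen after their values were seen. Not every gene this rule names is reported here. The steps were tested on simulated data. Alternatives changed the fold, filter, pseudocount, scaling, cells and TGFβR-WT set. Gene positions are from GENCODE on GRCm38 by symbol. Python 3.11.15, numpy 2.4.6, scipy 1.17.1, pandas 2.3.3 and matplotlib 3.10.9 were used.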

Additional observations from a re-analysis of the deposited data

Results flagged for a closer look

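*Kdm6b*, which encodes a histone H3K27 demethylase, moved in opposite directions in the pre-tumorigenic and activated clusters. In pre-tumorigenic cells it was at 2.63 corrected UMIs per 10000 in TGFβR-KO, 0.878 in set A and 0.793 in set B, with a smaller log2 ratio of 1.48. Its level went with the chaperones, at 1.88 in the TGFβR-KO cells of lower chaperone share and 3.38 in those of higher share. Among the cells at or below the median chaperone share of TGFβR-WT cells, it was at 0.933, 0.630 and 0.777, within the fold. In activated cells it was at 0.351, 1.96 and 0.976, with a smaller log2 ratio of -1.25. Both clusters come from the same libraries, and the difference between them was not tested. It was the only gene past the fold against both TGFβR-WT sets in opposite directions in these clusters.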

How the results depend on the processing

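The 49 higher and 44 lower genes depend on the limits used. A fold of 1.5 gave 101 higher and 226 lower, with 1142 between the TGFβR-WT sets, and a fold of 3 gave 21, 4 and 137. A filter of 0.2 gave 83, 90 and 1282, a filter of 1 gave 28, 21 and 187, and no filter gave 190, 126 and 2786. A pseudocount of 0.5 left 33 higher and 14 lower, with 182 between the sets, so the lower genes rest most on low values. Against the pooled TGFβR-WT cells there were 100 and 139, against set A alone 145 and 165 and against set B alone 160 and 224, which leaves out each set in turn. Among cells at or below the TGFβR-WT median chaperone share, added after seeing the data, 50 were higher and 120 lower, with 749 between the sets, over fewer cells. Leaving out the highest cell of each gene and set gave 61 and 38, and scaling without the chaperones and *Il22*, also added later, 48 and 40. No cell of this cluster shared a barcode or was above 5% mitochondrial, so these alternatives changed no count of genes. Over the 33 named genes followed there were 591 pairs of a gene and an alternative. In 153 the change was not smaller than the spread between the TGFβR-WT sets. These include unchanged values of *Csf2* and *Areg*, whose spread is 0 because both were at 0 in both sets. Of all pairs 0 changed direction, but many could not. Changes of fold or filter leave a ratio as it was, and the genes were chosen to agree against both sets. A gene on different sides of the 2 sets is given a ratio of 0, which is not counted as a change of direction. This was so for *Ccl5* and *Hspa1a* among the cells of low chaperone share. The other 438 changed by less than the spread, many of them not at all. For the difference of mean ln values, where no fold and so no count was taken, they kept their direction. At 2 or more UMIs, the shares of TGFβR-KO cells became 28.7% for *Ifng*, 44.8% for *Il22* and 8.70% for *Csf2*, and that of *Il22* in set B 1.92%. The shares of each library in the cluster stayed within their intervals without shared barcodes. No paired analysis was possible because TGFβR-KO is 1 sample and TGFβR-WT cells are not tied to their samples.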
